A study of Sus scrofa with 27 samples.

Results

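Lungs of 4 pigs (pigs 2, 3, 4 and 5) were kept on ex vivo lung perfusion (EVLP) with a pediatric dialysis circuit (PD), and their transcriptome at 12h of perfusion was compared with that of the same lungs at 0h. The comparison took every PD library labelled 0h or 12h, which gave 8 of the 27 libraries of the series, 4 at each time, and all genes were followed in either direction. The remaining libraries were the 4 PD biopsies at 6h and 15 biopsies of 5 other pigs perfused by the gold standard (GS) procedure, in which part of the perfusate was renewed at regular intervals instead of being dialysed. Each library was bulk RNA of a lung biopsy, and 0h was the biopsy taken after cold ischemia and before perfusion.

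Both groups shared the rest of the procedure. The donors were Large-White pigs whose hearts had stopped before harvest, the lungs went through cold ischemia, and the circuit was filled with Steen solution, an albumin and dextran perfusate without cells, supplemented with methylprednisolone, cefuroxime and heparin. A synthetic glucocorticoid was therefore present in every perfused lung, and no lung was left unperfused for 12h, so that the time on the circuit, the ischemia that preceded it and the drugs cannot be told apart in a comparison with 0h. The dialysis membrane was described as one that lets small solutes through and retains albumin. The RNA was extracted by a kit for frozen sections or by Trizol followed by a column, and the labels do not give the kit of each library.

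Reperfusion of an ischemic lung is known to set off NF-kB, a family of transcription factors that is held in the cytoplasm by inhibitors and, once released, switches on cytokines, chemokines, adhesion molecules and its own inhibitors. Stressed cells also call on ATF4, which raises amino acid transport and synthesis when translation is restrained, on NRF2, which raises enzymes against oxidants, and on metallothioneins, small proteins that bind zinc and other metals. Ribosome biogenesis, the making of ribosomal RNA and its assembly with ribosomal proteins in the nucleolus, is a separate programme that MYC and growth signals are known to drive.

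Promoters of 7 genes that rose and that carry a motif of those programmes are printed here, since the values of these genes lead the sections on inflammation and stress. Each run covers 250 bases before to 50 bases after the RefSeq transcript start in Sscrofa11.1, is written 5′ to 3′ on the strand of the gene, and has the motif matches in capitals. The metal response element core was searched as TGCACNC or TGCGCNC on either strand, and the 2 genes that changed most among the metallothioneins, MT1A (ENSSSCG00000023684, chr6:18671766-18672065, plus strand) and MT1X (ENSSSCG00000030300, chr6:18644875-18645174, plus strand), each held 4 matches, of which the first pair in MT1A overlap.
MT1A: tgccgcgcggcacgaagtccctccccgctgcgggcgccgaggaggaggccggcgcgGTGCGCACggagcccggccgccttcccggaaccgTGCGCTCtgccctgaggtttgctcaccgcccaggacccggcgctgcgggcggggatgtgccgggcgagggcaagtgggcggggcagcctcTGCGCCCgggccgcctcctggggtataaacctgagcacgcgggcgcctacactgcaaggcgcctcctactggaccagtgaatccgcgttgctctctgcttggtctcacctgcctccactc
MT1X: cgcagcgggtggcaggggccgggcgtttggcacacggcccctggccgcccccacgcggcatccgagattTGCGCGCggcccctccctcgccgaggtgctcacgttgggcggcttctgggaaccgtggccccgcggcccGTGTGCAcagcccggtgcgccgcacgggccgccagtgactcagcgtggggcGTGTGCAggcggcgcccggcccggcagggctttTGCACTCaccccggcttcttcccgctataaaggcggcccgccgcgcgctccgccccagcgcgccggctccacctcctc

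The xenobiotic response element, bound by the aryl hydrocarbon receptor, was searched as TNGCGTG, and CYP1A1 (ENSSSCG00000001906, chr7:58802637-58802936, plus strand) held 1 match at position -47 from the start. The response element shared by C/EBP proteins and ATF4 was searched as TGATGNAA, and CHAC1 (ENSSSCG00000038521, chr1:130363283-130363582, minus strand) held 1 match at position -165.
CYP1A1: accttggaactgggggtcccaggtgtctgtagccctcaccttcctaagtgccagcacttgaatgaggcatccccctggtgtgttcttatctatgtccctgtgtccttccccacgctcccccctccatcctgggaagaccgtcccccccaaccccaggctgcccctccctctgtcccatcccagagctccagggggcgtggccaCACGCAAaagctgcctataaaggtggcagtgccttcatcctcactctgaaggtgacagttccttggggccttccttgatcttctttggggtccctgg
CHAC1: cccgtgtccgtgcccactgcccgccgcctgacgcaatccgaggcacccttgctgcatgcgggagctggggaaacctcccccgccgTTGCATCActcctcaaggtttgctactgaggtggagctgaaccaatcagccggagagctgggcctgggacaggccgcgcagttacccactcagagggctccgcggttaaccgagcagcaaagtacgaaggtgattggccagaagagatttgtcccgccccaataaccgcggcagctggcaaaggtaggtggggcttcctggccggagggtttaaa

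The NF-kB site, searched by its usual consensus on either strand, was held by IL6 (ENSSSCG00000020970, chr9:91506171-91506470, plus strand) at position -72, by CXCL10 (ENSSSCG00000032474, chr8:71695899-71696198, minus strand) at -181 and -120, and by NFKBIA (ENSSSCG00000001952, chr7:64507869-64508168, plus strand) at -193.
IL6: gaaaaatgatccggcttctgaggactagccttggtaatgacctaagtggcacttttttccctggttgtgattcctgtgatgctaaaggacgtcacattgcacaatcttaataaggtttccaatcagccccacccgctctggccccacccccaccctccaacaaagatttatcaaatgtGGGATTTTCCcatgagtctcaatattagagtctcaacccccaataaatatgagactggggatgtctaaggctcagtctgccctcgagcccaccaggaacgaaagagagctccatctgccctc
CXCL10: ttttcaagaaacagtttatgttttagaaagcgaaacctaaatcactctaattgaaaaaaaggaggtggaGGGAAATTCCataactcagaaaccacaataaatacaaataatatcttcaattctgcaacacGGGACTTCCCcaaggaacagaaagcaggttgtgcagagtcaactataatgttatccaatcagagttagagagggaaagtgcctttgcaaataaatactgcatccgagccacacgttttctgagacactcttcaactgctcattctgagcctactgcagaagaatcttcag
NFKBIA: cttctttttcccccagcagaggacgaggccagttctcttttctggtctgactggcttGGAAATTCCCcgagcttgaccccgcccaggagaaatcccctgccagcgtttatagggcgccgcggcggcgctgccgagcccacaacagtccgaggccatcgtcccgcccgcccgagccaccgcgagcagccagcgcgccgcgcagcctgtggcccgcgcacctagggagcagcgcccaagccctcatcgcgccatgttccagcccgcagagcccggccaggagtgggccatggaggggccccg

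These matches describe letters and not bound sites. Of 16638 promoters of this length in the annotation, 30.5% held the metal response core, against 7 of 20 promoters (35%) of the tested metallothionein and zinc transport genes. The xenobiotic element stood in 5.9% of all promoters and in 2 of the 11 of the aryl hydrocarbon receptor genes, and the ATF4 element in 2.5% of all and in 5 of the 34 promoters (14.7%) found for the ATF4 list. The NF-kB site stood in 16.1% of all promoters and in 14 of 30 (46.7%) of those of the NF-kB subunits and inhibitors. An antioxidant response element, TGACNNNGC, stood in 12.4% of all promoters and in 8 of 34 of the NRF2 list, and the E-box CACGTG in 8.2% of all and in 15 of 87 (17.2%) of the ribosome biogenesis list. Among the members that rose at 12h, the metal response core stood in 2 of 3 promoters, the xenobiotic element in 2 of 4, the ATF4 element in 2 of 7, the NF-kB site in 7 of 8, the antioxidant element in 0 of 5 and the E-box in 5 of 38 (13.2%).

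The PD libraries held 14650700 to 21820935 counts over genes, and the 8 libraries compared here detected 18979 to 21443 genes. Lung markers were present in all of them, with SFTPC, the surfactant protein of alveolar type 2 cells, at 11050 CPM (read counts scaled to a common library size with TMM factors) or more. A pair of libraries stood apart from the other 10 PD libraries. The 12h library of pig 2 was the shallowest (14650700 counts) and gave 20.9% of its counts to ribosomal protein genes, 36.5% to transcripts under 1000 bases and 1.65% to mitochondrial genes, against 6.46 to 11%, 13.7 to 26.4% and 4.97 to 11.6% in those 10. The 0h library of pig 4 gave 15.9% to ribosomal protein genes and 35.4% to short transcripts, and its share of mitochondrial genes (8.61%) was within the range of the others. Both libraries were kept, and the main results are given again without them.

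**Figure D1:**
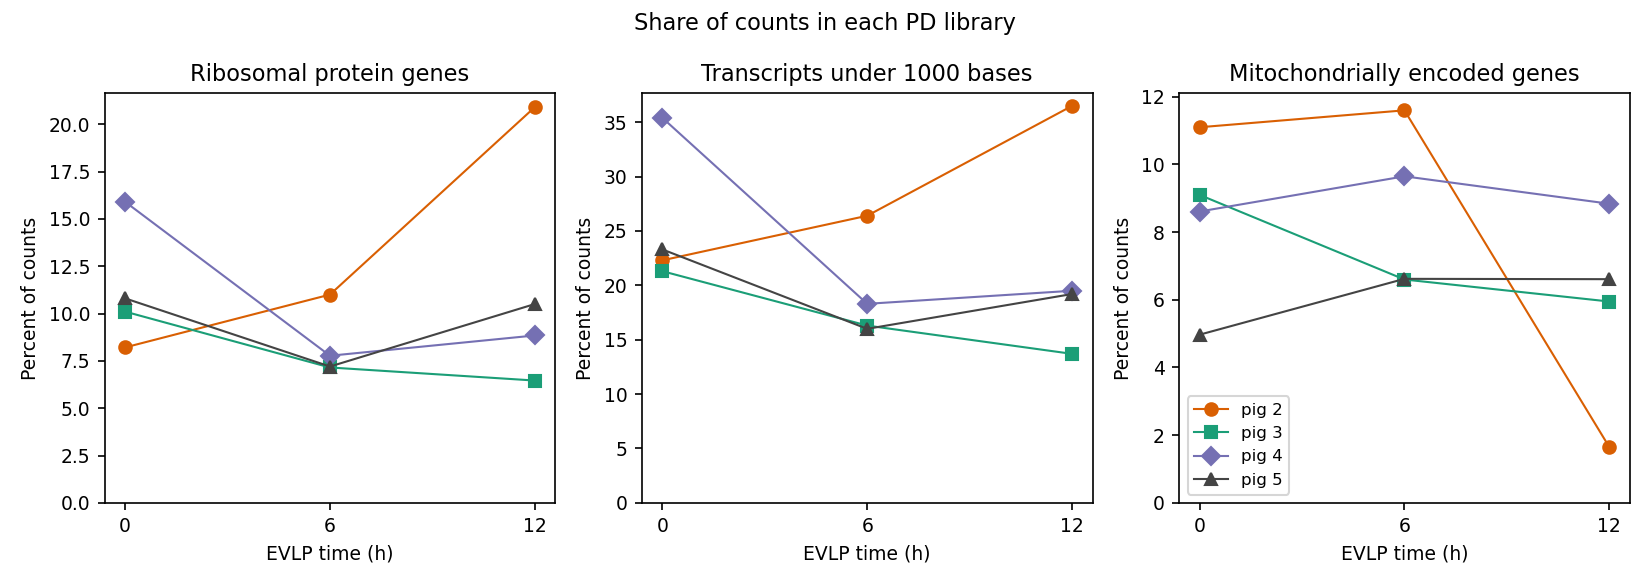
Share of counts (percent of all counts of a library, vertical axes from 0) that fell on ribosomal protein genes, on genes whose longest RefSeq transcript is under 1000 bases and on mitochondrially encoded genes, against EVLP time in h, with 1 point per PD library joined within a pig. Pig 2 at 12h lies highest in the first and second panels (20.9% and 36.5%) and lowest in the third (1.65%), and pig 4 at 0h lies second highest in the first and second (15.9% and 35.4%).

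A total of 15545 genes was expressed highly enough to be tested. The expression of 501 genes (3.22% of those tested) was higher at 12h than at 0h and that of 429 genes (2.76%) was lower, at an adjusted p below 0.05 and a change of at least 2-fold by edgeR's quasi-likelihood test with the pig as a block. Together these were 930 genes (5.98%), and 3812 genes had an unadjusted p below 0.05. Without the block, 1460 genes passed, which included 482 of the 501 and 392 of the 429. Among all tested genes, 2018 (13%) were higher at 12h in 4 of 4 pigs and 2347 (15.1%) lower in 4 of 4, and in 1336 (8.59%) the 4 libraries of 12h all lay above the 4 of 0h while in 1472 (9.47%) they all lay below.

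The number of called genes depended on single libraries. Without the 12h library of pig 2 it rose to 4161 (1885 higher, 2276 lower), without that library and the 0h library of pig 4 it was 3296, and without pig 2 altogether 3826. Without pig 4 it was 399, and without pig 3 or pig 5 no gene passed by edgeR, with 2091 and 1878 genes at an unadjusted p below 0.05. By limma voom, which gave the 12h library of pig 2 a weight of 0.126 and the 0h library of pig 4 a weight of 0.23 against 0.566 or more for the other 10, 4717 genes passed with all pigs, 4969 without pig 3 and 2488 without pig 5. With only the 8 libraries of 0h and 12h in the fit, 4 genes passed by edgeR (2772 at an unadjusted p below 0.05), and 179 of 187 named genes were no longer called. No gene among the 930 changed its direction in those of these fits that tested it. With the 8 libraries alone, 481 of the 501 higher and 417 of the 429 lower genes were tested. The calls that follow are those of edgeR with all libraries, and each of them is lost by edgeR when pig 3 or pig 5 is left out. The direction remains in those fits for every gene still tested. Without the 12h library of pig 2, 60 of the 65 gene lists had more than 1.5 times as many called genes (or some where there had been none), and 25 of the 35 lists with members higher and 0 lower had 1 or more lower, so that a count of 0 below holds for the fit with all libraries. Each share of a list given below is to be read against the 3.22% of all tested genes that were called higher and the 2.76% called lower. A gene described as not called missed the threshold in this fit, and limma voom called AHR, ASNS, FKBP5, HMOX1, MAP2K3, NFKB1, NPM1, NQO1, SELP and VCAM1 higher and HBB lower among those named below.

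Of the called genes, 456 higher and 377 lower ones were protein coding out of 14105 tested, and 23 higher and 50 lower ones were long non-coding RNAs out of 1016. Small nucleolar RNAs (snoRNAs), which guide the modification of ribosomal RNA, had 13 of 122 tested gene models higher (10.7%) and 0 lower, with a median log2 fold change of 1.26. Most snoRNAs lie within introns of other genes and carry no poly(A) tail, and counts on them in these poly(A) libraries cannot be told apart from reads of the host transcripts. The median log2 fold change of all tested genes was -0.05. A biopsy is a mixture of cells, so fewer cells of a type and less RNA per cell cannot be told apart in any of the values below. In the sentences that follow, 4 values for a time are CPM in the order of pigs 2, 3, 4 and 5, and they compare libraries within a gene, not genes with each other.

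The 10 largest rises among the called genes with a symbol were those of MT1A, CRHR1, MT1X, CYP1A1, TGM3, ACOD1, SELE, CSF3, IL6 and SOWAHA, and the 10 largest falls those of KLHL31, B3GALT2, LRRC17, LGI1, KLHL4, SMCO3, GALR1, P2RX7, CX3CR1 and GPR137C. They had to move the same way in all 4 pigs and to hold at least 10 counts in every library of the time at which they were higher, so the agreement among pigs in this group was a condition of its choice. MT1A stood at 0.615, 0.182, 0.106 and 0.328 CPM at 0h and at 59.2, 12.1, 32.3 and 26.8 CPM at 12h, with no overlap and with pig 2 highest at both times. Its log2 fold change was 6.58 (SE 0.82, adjusted p = 0.0105). MT1X rose from 8.90, 8.41, 11.8 and 14.8 to 1046, 128, 175 and 565 CPM (log2 fold change 5.22, SE 0.83, adjusted p = 0.017). Pigs 2 and 5 were far above pigs 3 and 4 at 12h, and the log2 fold change was 4.54 without the 12h library of pig 2. CRHR1, a receptor of corticotropin-releasing hormone, went from 0.757, 0.455, 0.106 and 0.328 to 7.91, 24.2, 14.8 and 40.5 CPM, and TGM3, a transglutaminase of epithelia, from 3.69, 6.23, 14.1 and 3.05 to 97.0, 99.2, 130 and 390 CPM. The log2 fold changes were 5.53 (SE 1.29) and 4.91 (SE 0.77), and neither gene had overlapping groups.

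**Figure D2:**
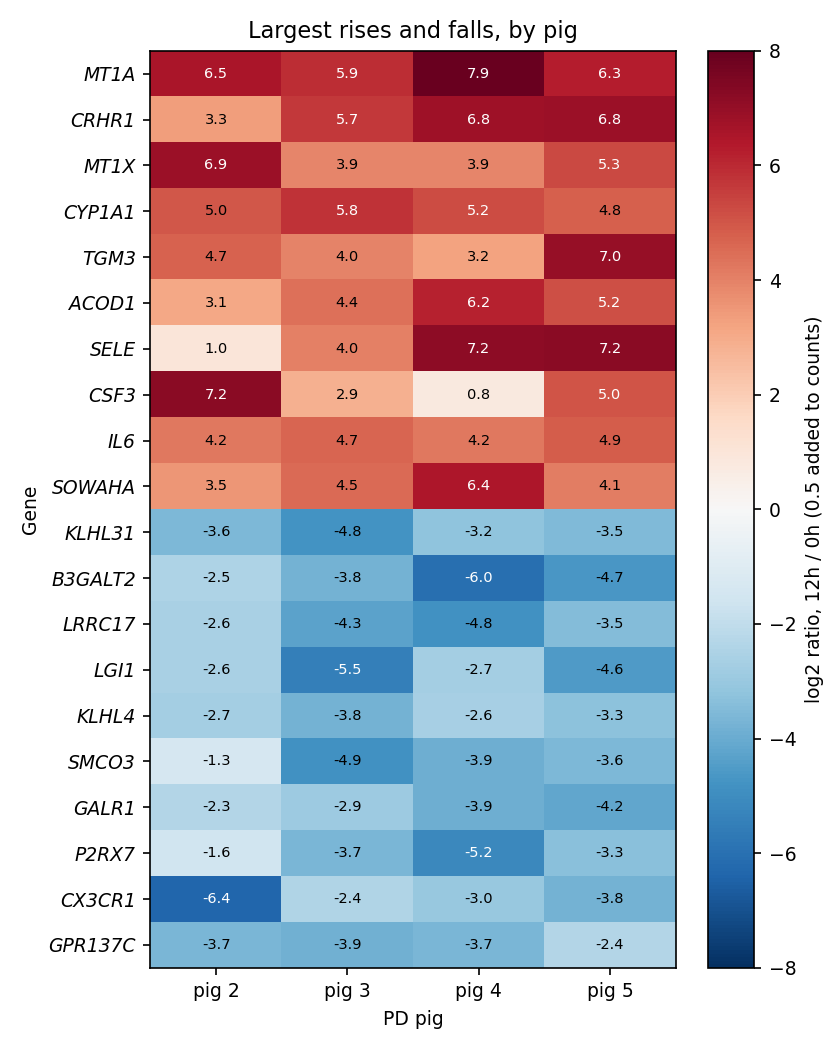
Log2 ratio of 12h to 0h in each PD pig (columns) for the 10 largest rises and 10 largest falls named by the rule (rows), with 0.5 added to the counts and the colour scale in log2 units. All cells of the upper 10 genes are above 0 and all of the lower 10 below 0, which the rule required, and within a gene the pigs differ, as for SELE and CSF3.

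Among the falls, B3GALT2, a galactosyltransferase, dropped from 8.85, 7.64, 17.3 and 22.3 CPM at 0h to 1.54, 0.522, 0.238 and 0.846 CPM at 12h (log2 fold change -4.27, SE 0.65, adjusted p = 0.0149). The log2 fold change of B3GALT2 was -4.91 without the 12h library of pig 2. LRRC17, a secreted leucine-rich repeat protein, dropped from 10.2, 7.73, 7.56 and 7.08 to 1.64, 0.380, 0.238 and 0.621 CPM (log2 fold change -3.99, SE 0.63, adjusted p = 0.0168). Pig 2 kept the highest 12h level of both genes, and the groups did not overlap. KLHL31 rested on few reads: 61 counts at 0h and 2 at 12h over the 4 libraries, a ratio of 24.1 with an exact conditional 95% interval of 6.40 to 204 that covers counting error only. CX3CR1, the fractalkine receptor of patrolling monocytes and cytotoxic lymphocytes, went from 3.93, 4.37, 4.12 and 6.61 CPM to 0, 0.807, 0.477 and 0.451 CPM (log2 fold change -3.39, SE 0.73, adjusted p = 0.0281).

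Inflammation was examined from the secreted ligands to the receptors and the feedback. Of 33 tested cytokines, 6 rose (18.2%, against 3.22% of all genes) and 0 fell, namely CSF3, IL6, IL27, IL1B, TNF and LIF. With the 12h library of pig 2 left out, 8 rose and 2 fell. IL6 stood at 3.83, 0.818, 2.75 and 1.45 CPM at 0h and at 71.6, 21.6, 50.9 and 43.1 CPM at 12h, with every 12h library above every 0h library. Its log2 fold change was 4.51 (SE 0.47, adjusted p = 0.0054). CSF3, the granulocyte colony-stimulating factor, was at 3.03, 2.86, 13.7 and 3.10 CPM at 0h and at 448, 20.9, 23.4 and 100.6 CPM at 12h, so that pig 2 rose by far more than pig 4. The fitted log2 fold change of CSF3 was 4.53 (SE 1.04, adjusted p = 0.0326), and 3.17 without the 12h library of pig 2.

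IL1B went from 1.51, 2.27, 1.69 and 0.610 to 8.39, 9.83, 14.1 and 14.9 CPM (log2 fold change 3.03, SE 0.72, adjusted p = 0.0351), and TNF from 4.83, 4.00, 5.87 and 2.63 to 24.5, 19.1, 28.1 and 44.3 CPM (log2 fold change 2.71, SE 0.41, adjusted p = 0.0149). Neither cytokine had overlapping groups, and pig 5 was lowest at 0h and highest at 12h for both. IL27 and LIF, ligands of receptors that share gp130, rose by log2 3.23 (SE 0.77) and 2.68 (SE 0.60). IL10, which restrains macrophages, was not called, with 9.18, 8, 2.91 and 6.42 CPM at 0h and 4.82, 7.03, 10.4 and 15.0 CPM at 12h (log2 fold change 0.63, adjusted p = 0.542). Its 2 times overlapped, with pigs 2 and 3 lower and pigs 4 and 5 higher at 12h.

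Of 23 chemokines, 3 rose (13%) and 1 fell (4.35%), and the median log2 fold change was 0.65. With the 12h library of pig 2 left out, 5 rose and 4 fell, and the median was 0.25. CXCL10, an attractant of activated T cells, stood at 109, 223, 176 and 50.5 CPM at 0h and at 196, 3306, 8618 and 2071 CPM at 12h. Pig 2 gained little and stayed below the 0h level of pig 3, while the other pigs stood far above it, and the fitted log2 fold change was 4.08 (SE 0.99, adjusted p = 0.0371), and 4.67 without the 12h library of pig 2. CCL4, an attractant of monocytes and T cells, went from 24.3, 18.0, 12.7 and 11.7 to 210, 98.0, 143 and 257 CPM with no overlap (log2 fold change 3.37, SE 0.50, adjusted p = 0.0149), and CCL3L1 rose by log2 3.07 (SE 0.55, adjusted p = 0.0179), a gene with close copies among which reads may be divided. CCL28, a mucosal chemokine, fell from 4.83, 4.27, 5.34 and 10.9 to 1.64, 0.855, 1.25 and 4.06 CPM (log2 fold change -1.88, SE 0.43, adjusted p = 0.0325). CXCL8, the neutrophil attractant, was at 25.6, 74.7, 38.4 and 6.99 CPM at 0h and at 9.84, 28.7, 239 and 69.1 CPM at 12h, lower in pigs 2 and 3 and higher in pigs 4 and 5 (log2 fold change 0.76, adjusted p = 0.644).

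Of 51 tested cytokine receptors and JAK-STAT regulators, 9 rose (17.6%), 0 fell, and the median log2 fold change was 1.08 (23 higher and 1 lower with the 12h library of pig 2 left out). IL1R1, the signalling receptor of interleukin-1, stood at 45.2, 36.2, 22.8 and 25.9 CPM at 0h and at 68.0, 579, 534 and 397 CPM at 12h, and its coreceptor IL1RAP went from 13.2, 21.9, 8.30 and 8.25 to 23.6, 121, 186 and 53.4 CPM. Pig 2 was the lowest of the 12h libraries for both and still above the 0h libraries (log2 fold changes 3.27, SE 0.75, and 2.58, SE 0.61). IL1R2, the decoy receptor of the same ligand, also rose, by log2 2.47 (SE 0.51, adjusted p = 0.0252). IL4R, STAT5A, PIM1 and IL15RA rose by log2 1.95 to 2.76, and so did the feedback inhibitors SOCS3 (2.52, SE 0.52) and SOCS1 (1.61, SE 0.38). Among 19 TNF receptors and costimulatory molecules, CD83 (2.38, SE 0.36) and CD40 (1.56, SE 0.36) rose and TNFRSF11A, the receptor RANK, fell (-2.38, SE 0.54).

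The list of NF-kB subunits and feedback inhibitors had 9 of 33 tested members higher (27.3%) and 0 lower, and a median log2 fold change of 1.30 with medians of 0.77, 0.97, 1.03 and 1.97 in pigs 2, 3, 4 and 5. TNFAIP3, the ubiquitin-editing enzyme A20 that shuts the pathway down, stood at 61.2, 85.2, 48.4 and 37.2 CPM at 0h and at 186, 457, 663 and 688 CPM at 12h (log2 fold change 3.04, SE 0.48, adjusted p = 0.0161). NFKBIA, the inhibitor IkB-alpha whose promoter is printed above, went from 180, 189, 417 and 194 to 964, 596, 794 and 1349 CPM (log2 fold change 1.96, SE 0.38, adjusted p = 0.0218). No 0h library reached a 12h library for either gene. TNIP1, a partner of A20, BCL3, a nuclear IkB protein, and the subunits RELB, NFKB2 and REL rose by log2 2.55, 2.13, 1.91, 1.69 and 1.48, and the kinase MAP3K8 and the adaptor TRAF3 were the other called members. The subunits NFKB1 (log2 fold change 1.30, adjusted p = 0.143) and RELA (0.83, adjusted p = 0.133) were not called, and pig 2 was lower at 12h than at 0h for NFKB1. Leaving out the 12h library of pig 2 brought the list to 18 higher and 0 lower.

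**Figure D3:**
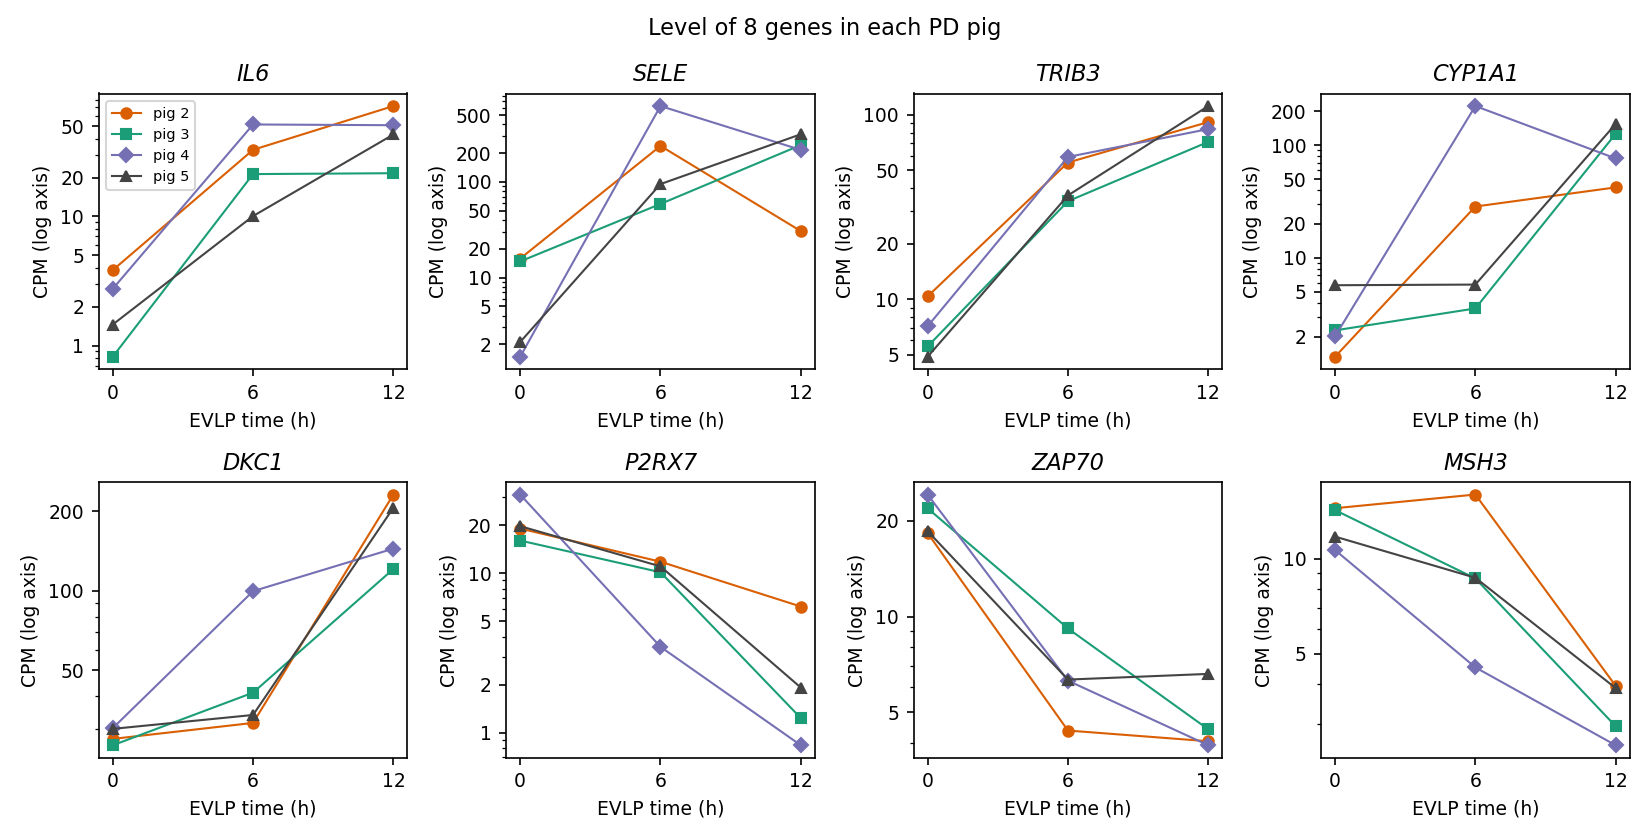
Level of 8 genes in CPM (vertical log axes) against EVLP time in h, with 1 line per PD pig through its 0h, 6h and 12h libraries. IL6, SELE, TRIB3, CYP1A1 and DKC1 stand higher at 12h than at 0h in all 4 pigs and P2RX7, ZAP70 and MSH3 lower, while the 6h point of CYP1A1 is near the 0h point in pigs 3 and 5 only, and SELE in pigs 2 and 4 is lower at 12h than at 6h.

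Immediate early genes were divided. Of 32 tested AP-1, EGR and NR4A genes, 5 rose (15.6%) and 0 fell (7 and 2 without the 12h library of pig 2), and the median log2 fold change was 0.43 at 12h and 1.05 at 6h, both against the same 0h libraries. MAFF, a small MAF protein, went from 38.1, 27.8, 16.1 and 17.3 to 296, 92.6, 131 and 232 CPM (log2 fold change 2.90, SE 0.40, adjusted p = 0.0136). FOSL1 and FOSL2 rose by log2 3.63 (SE 0.61) and 2.87 (SE 0.52). MYC rose from 45.2, 37.5, 12.4 and 32.1 to 117, 152, 211 and 273 CPM (log2 fold change 2.62, SE 0.45, adjusted p = 0.0176). FOS itself was not called, with 541, 450, 310 and 39.1 CPM at 0h and 72.5, 55.8, 68.0 and 235 CPM at 12h, higher at 12h in pig 5 alone (log2 fold change -1.91, adjusted p = 0.221, and 0.01 by limma voom). The MAPK phosphatases DUSP2 and DUSP5, 2 of 26 tested MAPK regulators, rose by log2 2.56 (SE 0.43) and 2.04 (SE 0.47), and MAP2K3 missed the threshold at 1.47 (adjusted p = 0.0746) although its 12h libraries all lay above its 0h libraries, and 9 of 19 other fits called it (adjusted p from 0.000545 to 0.394 over the fits). Of 14 Kruppel-like factors, KLF9 (1.86, SE 0.46) and KLF13 (1.47, SE 0.36) rose and KLF8 fell (-2.28, SE 0.50). Of 12 EGF receptor ligands and receptors, AREG (3.09, SE 0.49), EREG (2.92, SE 0.72) and HBEGF (2.04, SE 0.43) rose, EREG in pigs 3, 4 and 5 while pig 2 went from 52.6 to 45.8 CPM, and its log2 fold change was 3.56 without the 12h library of pig 2.

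In the interferon lists few genes passed, and the number depended on 1 library. IRF1 was the 1 called gene of 28 interferon regulatory factors and antigen presentation genes, at 114, 131, 163 and 126 CPM at 0h and 988, 689, 954 and 1172 CPM at 12h (log2 fold change 2.86, SE 0.41, adjusted p = 0.0149), with every 12h library above every 0h library. CIITA, the regulator of MHC class II genes, was not called (0.41, adjusted p = 0.48). Of 47 interferon-stimulated genes, ISG15 (2.90, SE 0.67) and GBP1 (1.75, SE 0.42) rose (4.26%, near the 3.22% of all tested genes) and 0 fell, while 12 rose and 3 fell with the 12h library of pig 2 left out, and limma voom called 15 higher and 2 lower. NOD2, a sensor of bacterial peptidoglycan, was the 1 called gene of 29 Toll-like receptors and adaptors (1.89, SE 0.34), a share of 3.45% and near that of all genes (5 higher and 3 lower without the 12h library of pig 2). Among 21 regulators of mRNA decay, ZC3H12A and ZC3H12C, which degrade cytokine mRNAs, rose by log2 2.34 (SE 0.59) and 2.65 (SE 0.47), and ZC3H12D fell by 1.80 (SE 0.39), against 7 higher and 1 lower of the 21 without the 12h library of pig 2.

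Cells of the vessel wall meet leukocytes through adhesion molecules and control clotting at their surface. Of 45 genes of endothelial adhesion and permeability, 4 rose (8.89%) and 0 fell, with a list median of 0.08 (9 higher and 3 lower with the 12h library of pig 2 left out). SELE, the E-selectin that endothelium displays after cytokine exposure, stood at 15.8, 14.7, 1.48 and 2.11 CPM at 0h and at 30.6, 243, 216 and 316 CPM at 12h, so that pig 2 was the nearest to 0h at 12h and the others were well above it (log2 fold change 4.68, SE 1.20, adjusted p = 0.0441, and 5.42 without the 12h library of pig 2). ICAM1 went from 168, 185, 238 and 142 to 717, 1203, 1070 and 1412 CPM (log2 fold change 2.59, SE 0.38, adjusted p = 0.0149). ADM, the vasodilator adrenomedullin, and EDN1, the vasoconstrictor endothelin-1, rose by log2 3.48 (SE 0.47) and 2.49 (SE 0.59). VCAM1 (1.76, adjusted p = 0.139), SELP (1.83, adjusted p = 0.324) and TEK, the angiopoietin receptor that keeps vessels tight (-0.84, adjusted p = 0.28), were not called. TEK was at 132, 190, 66.5 and 105 CPM at 0h and at 22.4, 87.8, 78.8 and 82.5 CPM at 12h, higher at 12h in pig 4 and lower in the other pigs.

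Of 27 coagulation and fibrinolysis genes, 3 rose and 0 fell, and 10 rose and 3 fell with the 12h library of pig 2 left out. F3, tissue factor, the starter of coagulation, went from 358, 209, 87.5 and 109 to 623, 816, 505 and 390 CPM (log2 fold change 1.71, SE 0.40, adjusted p = 0.0342). PLAT, the tissue plasminogen activator, went from 19.6, 19.6, 9.14 and 16.6 to 67.8, 128, 131 and 171 CPM with no overlap (log2 fold change 2.83, SE 0.53, adjusted p = 0.02). Of 24 prostaglandin and leukotriene genes, PTGIR, the prostacyclin receptor, rose (2.23, SE 0.45), and HPGD, which breaks prostaglandins down, and ALOX15 fell (-2.09, SE 0.38, and -1.43, SE 0.38). HPGD is also a marker of capillary endothelium and was the 1 called gene of 36 on that list (2.78% lower, close to the share over all genes), which had 1 higher and 5 lower by DESeq2 and 2 and 8 without the 12h library of pig 2. Of 27 complement genes, C5AR1, the receptor of C5a, fell from 39.5, 57.1, 49.7 and 61.4 to 15.8, 15.1, 17.4 and 11.3 CPM (log2 fold change -1.80, SE 0.37, adjusted p = 0.0253) and MASP2 rose (1.67, SE 0.42). The list thus had 3.7% higher and 3.7% lower, both near the shares over all genes. With the 12h library of pig 2 left out, 2 complement genes rose and 4 fell.

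Stress programmes came next. Of 20 metallothionein and zinc transport genes, MT1A, MT1D and SLC39A7 rose (15%), and the list median was 0.84. MT1X, which rose as described above, is not a member of that list. Reads may be divided among the near-identical copies of the metallothionein genes, MT1A, MT1X and MT1D included. Leaving out the 12h library of pig 2 gave 9 higher of the 20, and the log2 fold change of MT1D was 4.33 in place of 5.13. Of 45 genes of the ATF4 amino acid response, 9 rose (20%), 0 fell, and 23 were higher at 12h in 4 of 4 pigs, and 19 rose with the 12h library of pig 2 left out. TRIB3, a pseudokinase that restrains ATF4, stood at 10.4, 5.55, 7.13 and 4.88 CPM at 0h and at 91.4, 71.3, 83.7 and 112 CPM at 12h, a like rise in every pig (log2 fold change 3.73, SE 0.36, adjusted p = 0.0054). CHAC1, which degrades glutathione, went from 0.947, 0.864, 0.0528 and 1.64 to 11.3, 6.60, 17.8 and 25.1 CPM (log2 fold change 3.96, SE 0.80, adjusted p = 0.024). ATF4 itself, the amino acid carriers SLC7A1 and SLC3A2, the tRNA ligases YARS1 and GARS1, SESN2 and STC2 rose by log2 1.38 to 3.66. ASNS, asparagine synthetase, was not called (1.28, adjusted p = 0.0808). DDIT3, the death-promoting factor CHOP, has 2 overlapping gene models between which reads may be divided, and neither was called (1.07, adjusted p = 0.219, and -0.37, adjusted p = 0.756).

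Of 35 NRF2 antioxidant genes, 5 rose (14.3%) and 0 fell. SRXN1, sulfiredoxin, stood at 23.2, 19.7, 11.4 and 11.7 CPM at 0h and at 128, 162, 225 and 138 CPM at 12h, and TXNRD1, thioredoxin reductase, at 42.5, 48, 18.6 and 40.3 and then 205, 321, 398 and 296 CPM. Their log2 fold changes were 3.27 (SE 0.43) and 2.93 (SE 0.48), and pig 4 had the lowest 0h and the highest 12h level of both. SOD2, GPX3 and SQSTM1 rose by log2 2.34, 2.19 and 1.59, and HMOX1 (1.35, adjusted p = 0.108) and NQO1 (1.27, adjusted p = 0.066) were not called. Of 35 genes of the unfolded protein response, the chaperone HSPA5, DNAJB9 and SELENOS rose by log2 1.61, 2.06 and 1.87 (8.57% of the list), and XBP1 was not called (0.55, adjusted p = 0.359). Of 33 cytosolic heat shock chaperones, BAG3 (1.42) and CCT5 (1.27) rose (6.06%), and of 40 hypoxia and glycolysis genes, ADM, PFKFB3, HK2 and BHLHE40 rose (10%). With the 12h library of pig 2 left out, the NRF2 list had 8 higher and 2 lower, the unfolded protein response 9 and 0, the heat shock chaperones 8 and 3 and the hypoxia list 9 and 5.

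The aryl hydrocarbon receptor is a ligand-activated factor whose best known target is CYP1A1. This list of 11 genes, put together after the values had been seen, had 4 members higher (36.4%) and 0 lower. CYP1A1 was at 1.32, 2.27, 2.01 and 5.72 CPM at 0h and at 42.2, 126, 76.3 and 155 CPM at 12h (log2 fold change 5.22, SE 1.13, adjusted p = 0.029). At 6h its level had moved in pigs 2 and 4 and hardly in pigs 3 and 5, as the plot of single genes over time shows. The gene annotated PDCD6-AHRR, which includes the repressor of the receptor, and TIPARP rose by log2 3.68 (SE 0.65) and 1.81 (SE 0.37), and UGT1A6 by 1.41 (SE 0.37) with overlapping groups. The receptor AHR itself was not called (1.02, adjusted p = 0.296), with pig 2 falling from 79.0 to 25.3 CPM and the other pigs rising.

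Of 25 glucocorticoid response genes, 5 rose (20%) and 0 fell, and the median was 1.02. SGK1, a kinase that raises sodium channel activity, went from 136, 111, 25.3 and 63.0 to 219, 363, 375 and 545 CPM (log2 fold change 2.28, SE 0.52, adjusted p = 0.0319), and FKBP5 lay at the threshold (1.63, adjusted p = 0.0501). Of 37 genes of the BCL2 family, p53 and growth arrest, 7 rose (18.9%) and 0 fell. GADD45A, a growth arrest gene, stood at 31.9, 24.1, 25.0 and 22.5 CPM at 0h and at 214, 133, 202 and 252 CPM at 12h (log2 fold change 2.95, SE 0.33, adjusted p = 0.00681), and CDKN1A, the p21 inhibitor of the cell cycle, rose by log2 2.09 (SE 0.38). Of 23 genes of itaconate, tryptophan, arginine and polyamine metabolism, 6 rose (26.1%) and 0 fell. ACOD1, which makes itaconate in activated macrophages, stood at 2.84, 6.68, 3.75 and 2.72 CPM at 0h and at 24.2, 142, 274 and 97.9 CPM at 12h, with pig 2 the lowest at 12h and still above the 0h libraries (log2 fold change 4.69, SE 1.04, adjusted p = 0.0304). ARG1, ODC1, SRM and NAMPT rose by log2 1.49 to 2.93. NNMT rested on 1 count at 0h against 56 at 12h, a ratio of 70.8 with a counting interval of 12.2 to 2850. Of those 56 counts, 34 were in pig 2 and 1 in pig 4, and the fitted log2 fold change of NNMT was 5.57 with all libraries and 4.10 without the 12h library of pig 2. The same omission gave 13 higher and 0 lower for the glucocorticoid list, 11 and 3 for the BCL2 family, p53 and growth arrest, and 10 and 4 for itaconate, tryptophan, arginine and polyamine metabolism.

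Epithelial genes rose on some lists. Of 26 genes of transitional epithelium and injury, 3 rose (11.5%, 9 by DESeq2 and 7 without the 12h library of pig 2) and 0 fell, and EPHA2 (1.91, SE 0.43) and CDKN1A were among them. CA12, a carbonic anhydrase on the alveolar type 2 list, went from 5.25, 2.86, 7.56 and 1.45 to 28.6, 49.1, 44.4 and 12.5 CPM (log2 fold change 3.06, SE 0.47, adjusted p = 0.0149) and was the 1 called gene of 13 on that list, whose median was -0.26 with 1.04, -0.18, -0.66 and -1.30 in pigs 2, 3, 4 and 5 (3 lower with the 12h library of pig 2 left out). PDPN, podoplanin, was the 1 called gene of 14 on the alveolar type 1 list and of 8 on the lymphatic list (1.74, SE 0.37). The list medians were 0.17 and -0.38, with pigs on both sides of 0 for each. Of 33 junction genes, 2 rose (6.06%) and 0 fell, and of 33 genes of ion and water transport, CA12, SGK1, KCNK1 and SCNN1A, the alpha subunit of the sodium channel that clears alveolar fluid (1.48, SE 0.34), rose (12.1%, and 13 higher and 1 lower without the 12h library of pig 2). Of 40 matrix proteases and inhibitors, ADAMTS4 (4.01, SE 0.69), PTX3 (3.40, SE 0.60) and TIMP1 (2.63, SE 0.47) rose (7.5%, and 9 higher and 6 lower without the 12h library of pig 2), and 0 of 43 collagen, laminin and elastic fibre genes were called by edgeR, with 2 at an unadjusted p below 0.05 and 1 called lower by DESeq2. Of 32 genes of BMP signaling, BMP2 rose (2.87, SE 0.49) and BMP5 (-1.55, SE 0.39) and ID3 (-1.67, SE 0.32) fell. These were 3.12% of the list higher, near the share over all genes, and 6.25% lower (4 higher and 6 lower without the 12h library of pig 2). NFIL3 and BHLHE40 were the 2 called genes of 22 of the circadian clock, and both rose (9.09%). Other fits called clock genes both ways, with 3 higher and 2 lower by DESeq2 and 6 and 4 without the 12h library of pig 2.

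Among the pathway lists, ribosome biogenesis had the most called genes. Of 87 tested genes, 38 rose (43.7%, against 3.22% of all tested genes) and 0 fell, and 63 were higher at 12h in 4 of 4 pigs, against 13% of all genes. The list's median log2 fold change was 1.41, and its medians in pigs 2, 3, 4 and 5 were 1.24, 1.43, 1.32 and 1.58. Without the 12h library of pig 2, 62 of the 87 rose, and over all the other fits the list's median stayed between 1.31 and 1.57. DKC1, the pseudouridine synthase of ribosomal RNA and a telomerase component, stood at 27.5, 26.1, 30.2 and 30.1 CPM at 0h and at 232, 121, 145 and 206 CPM at 12h (log2 fold change 2.63, SE 0.42, adjusted p = 0.0163). NOLC1, a nucleolar chaperone of the snoRNA particles, went from 51.7, 48.9, 65.0 and 49.4 to 198, 319, 393 and 346 CPM (log2 fold change 2.52, SE 0.38, adjusted p = 0.0149), and NPM3, a nucleophosmin family member, from 8.99, 11.2, 18.6 and 11.2 to 78, 71.7, 85.4 and 93.9 CPM (2.83, SE 0.48, adjusted p = 0.0176). The 0h and 12h values of these genes were far apart in each pig.

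The called members reached through the steps of the pathway. URB2, NOP2 and RRP12, which process pre-ribosomal RNA, rose by log2 3.14, 2.37 and 1.75, the helicase DDX21 by 2.82, and POLR1C, a subunit shared by RNA polymerases I and III, by 1.89. Nucleolin (NCL), NOP56 and GAR1 of the snoRNA particles, and PES1 of the large subunit pathway, rose by 2.03, 1.84, 1.38 and 1.42. FBL, fibrillarin, was not called at 1.25 (adjusted p = 0.0685) with its 12h libraries all above those of 0h, NPM1 was not called (0.97, adjusted p = 0.254), and UBTF, the activator of ribosomal DNA transcription, was not called and lay on the other side of 0 (-0.42, adjusted p = 0.55).

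**Figure D4:**
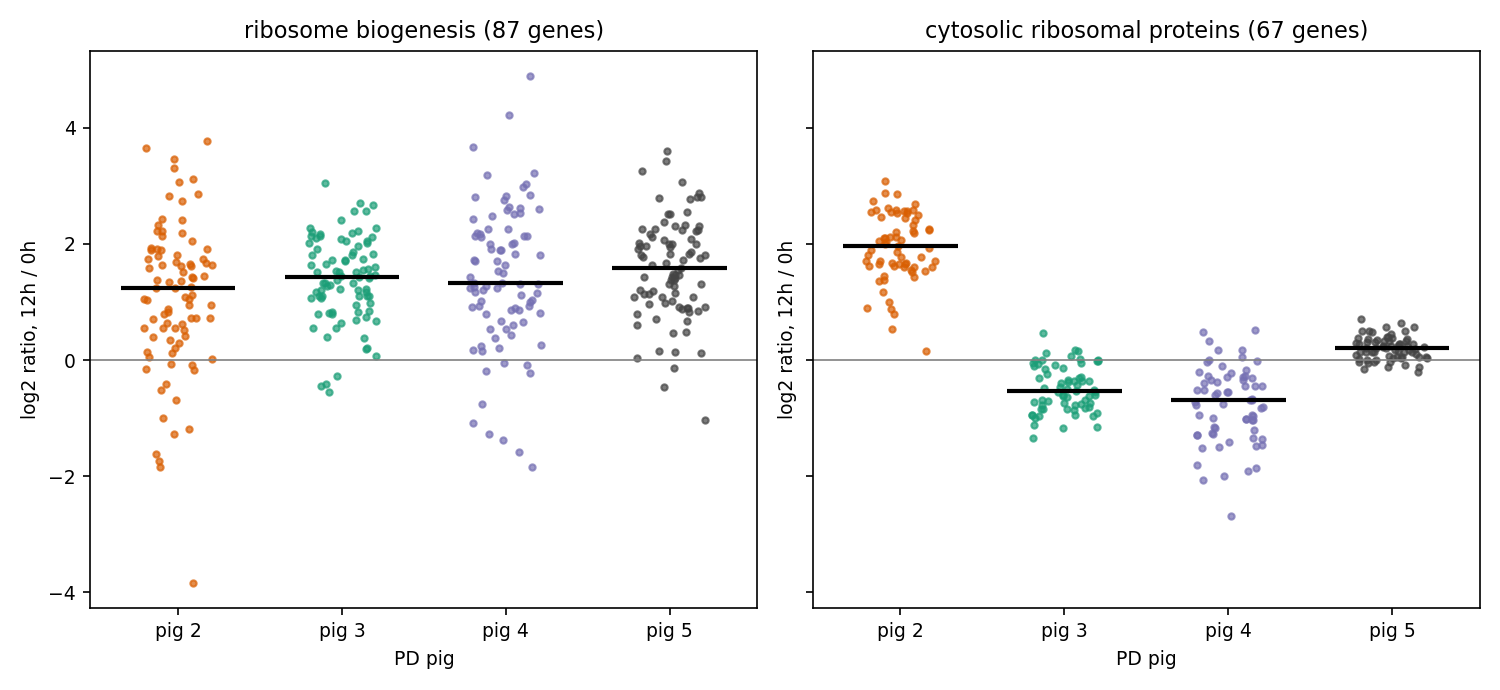
Log2 ratio of 12h to 0h in each PD pig for the 87 tested ribosome biogenesis genes (left) and the 67 tested cytosolic ribosomal protein genes (right), with 1 point per gene and a bar at the pig's median. The medians of the left panel lie between 1.24 and 1.58 in all 4 pigs, and those of the right panel are 1.97, -0.53, -0.70 and 0.21 in pigs 2, 3, 4 and 5.

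No such rise was called among the ribosomal proteins. None of 67 tested cytosolic ribosomal protein genes was called by edgeR, DESeq2 or limma voom, 0 had an unadjusted p below 0.05 by edgeR, and 1 was higher in 4 of 4 pigs. Their medians were 1.97, -0.53, -0.70 and 0.21 in pigs 2, 3, 4 and 5, up in pig 2 and slightly in pig 5 and down in pigs 3 and 4, and their share of counts was 8.21, 10.1, 15.9 and 10.8% at 0h and 20.9, 6.46, 8.84 and 10.5% at 12h. With the 12h library of pig 2 and the 0h library of pig 4, which held the highest shares, left out, the biogenesis median was 1.32 and 54 of its 87 genes rose, in a fit that called 3296 genes in all. Of 43 translation factors, EIF4A1, EIF3B, EIF6, EIF1 and EIF4A3 rose by log2 1.23 to 1.91 (11.6%) and 0 fell. Of 40 proteasome genes, PSMD7, PSMC1 and PSMD3 rose by 1.34 to 1.62 (7.5%), 0 fell, and 19 were higher in 4 of 4 pigs. With the 12h library of pig 2 left out, 17 translation factors rose and 2 fell, and 12 proteasome genes rose and 2 fell. CYCS, cytochrome c, was the 1 called gene of 50 nuclear genes of oxidative phosphorylation (1.77, SE 0.35), and 0 of 13 mitochondrial mRNAs were called by edgeR or DESeq2, with 0 at an unadjusted p below 0.05 by edgeR. By limma voom 2 of these 13 were higher. With the 12h library of pig 2 left out 1 rose, and their median was 0.635 in place of 0.093.

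At 6h the pigs differed in ribosome biogenesis. The summed level of the list at 6h was 5453, 4042, 8657 and 3380 CPM in pigs 2, 3, 4 and 5, after 3571, 3846, 3883 and 3551 CPM at 0h and before 8724, 9777, 12560 and 11590 CPM at 12h, so that it was well above 0h in pig 4, above it in pig 2 and near it in pigs 3 and 5. DKC1, for one, was at 31.7, 41.2, 99.8 and 33.9 CPM at 6h, and pig 4 was also the highest for NOLC1 (222 CPM) and NPM3 (50.3 CPM). The list's median log2 fold change against the same 0h libraries was 0.29 at 6h and 1.41 at 12h, and the fitted level was higher at 12h than at 6h for 86 of 87 genes (98.9%, against 48.8% of all tested genes). The same was so for 67 of 67 cytosolic ribosomal protein genes, 40 of 40 proteasome genes, 41 of 45 of the ATF4 list (91.1%), 31 of 35 of the NRF2 list (88.6%) and 44 of 50 nuclear genes of oxidative phosphorylation (88%), so this was not particular to biogenesis. DKC1 had a log2 fold change of 0.77 at 6h (adjusted p = 0.58), NOLC1 of 0.81 (adjusted p = 0.524) and NPM3 of 0.37 (adjusted p = 0.774). The proteasome list went from a median of 0.11 at 6h to 0.69 at 12h, and the ATF4 list from 0.30 to 0.97. CCL4, TNFAIP3, TNF, MAFF and GADD45A passed the threshold at 6h already, with log2 fold changes of 3.94, 3.35, 3.20, 3.14 and 3.28 (adjusted p = 0.0176, 0.0222, 0.0176, 0.0176 and 0.0102), each as large as or larger than at 12h. IL6 stood at 3.77 at 6h (adjusted p = 0.0176) and 4.51 at 12h, and SELE at 4.72 (adjusted p = 0.178) and 4.68. The 6h and 12h changes share their 0h libraries and are given side by side, and the change from 6h to 12h was not tested.

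Genes that fell included many of leukocytes. The clearest group was the receptors of the Fc receptor-like, SLAM and CD1 families, a list drawn up after the values had been seen, with 13 of 23 tested members lower (56.5%, against 2.76% of all tested genes) and 0 higher. Its median was -1.84, and -1.67, -2.03, -1.70 and -1.51 in pigs 2, 3, 4 and 5. The summed level of the list did not fall in every pig. It went from 696.5, 886.4, 902.3 and 744.3 to 867.6, 555.8, 948.5 and 665.4 CPM, up in pigs 2 and 4 and down in pigs 3 and 5. CD1B, which presents lipids on dendritic cells, went from 19.3, 24.1, 13.6 and 19.9 to 4.92, 3.61, 2.92 and 4.17 CPM (log2 fold change -2.30, SE 0.34, adjusted p = 0.0149), and CD226, an activating receptor of NK and T cells, from 6.62, 13.6, 6.39 and 6.80 to 0.579, 1.85, 1.31 and 1.58 CPM (-2.63, SE 0.45, adjusted p = 0.0176). The times did not overlap for either gene. SLAMF6, LY9 and CD244 of the SLAM family fell by log2 2.11, 2.00 and 2.17, and FCRL1, FCRL3 and FCRL4 by 2.54, 1.84 and 2.91. FCRL4, FCRL1 and FCRL6 were low, below 5 CPM in every library compared. With the 12h library of pig 2 left out, 17 of the list fell and 1 rose.

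Markers of the cells that carry these receptors were set beside them. Of 29 T and NK cell markers, ZAP70, CD3D and LCK fell and 0 rose, 11 were lower in 4 of 4 pigs, and the median was -0.71 (7 lower with the 12h library of pig 2 left out). ZAP70, the kinase of the T cell receptor, went from 18.3, 21.9, 24.2 and 18.6 to 4.05, 4.42, 3.94 and 6.60 CPM (log2 fold change -2.14, SE 0.35, adjusted p = 0.0176), and CD3D from 21.8, 37.0, 28.8 and 20.6 to 9.16, 8.36, 9.84 and 8.12 CPM (-1.58, SE 0.32, adjusted p = 0.024). CD3E, of the same receptor complex, was not called at 24.5, 40.9, 22 and 22.4 and then 16.2, 19, 20.3 and 17.5 CPM (-0.55, adjusted p = 0.309). The summed level of the list was 452, 800, 628 and 493 CPM at 0h and 300, 312, 366 and 445 CPM at 12h, lower in each pig. Of 13 B and plasma cell markers, MS4A1, the CD20 antigen, fell from 12.5, 40.0, 38.6 and 32.6 to 2.70, 4.80, 6.92 and 9.20 CPM (-2.39, SE 0.44, adjusted p = 0.0189), and the list's median was -1.01, with 0.36, -1.35, -1.33 and -0.82 in pigs 2, 3, 4 and 5 (5 lower with the 12h library of pig 2 left out). The summed level of these markers went from 890, 1982, 588.5 and 609.1 to 262.6, 539.1, 702.9 and 821.2 CPM, down in pigs 2 and 3 and up in pigs 4 and 5.

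PTPRC, the CD45 antigen of all leukocytes, was not called, with 208, 337, 86.6 and 170 CPM at 0h and 49.1, 158, 192 and 122 CPM at 12h, higher in pig 4. None of 20 macrophage markers was called by edgeR, with 3 at an unadjusted p below 0.05 and, by DESeq2, 1 called higher and 1 lower. IL1R2 was the 1 called gene of 16 neutrophil and monocyte markers, higher at 12h while the list's median was -0.76. Other fits called mostly falls on that list, with 1 higher and 4 lower by DESeq2, 1 and 9 by limma voom, and 1 and 5 without the 12h library of pig 2. None of 7 erythroid and 7 platelet markers was called by edgeR, with 1 on each list at an unadjusted p below 0.05, and DESeq2 called 2 erythroid markers lower and 0 platelet markers. By limma voom 5 erythroid markers were lower, and 2 platelet markers were lower and 1 higher. With the 12h library of pig 2 left out, 3 erythroid markers fell and 1 platelet marker rose, and the erythroid median was -2.54 in place of -1.12. HBB, a globin of red cells, went from 43.6, 116, 216 and 110 to 318, 9.78, 8.41 and 6.66 CPM, higher in the 12h library of pig 2 alone. The part of leukocyte content in the falls of leukocyte genes was not tested.

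Some genes of the inflammasome list and of the purinergic receptor list fell as well, both lists drawn up after the values had been seen. P2RX7, the ATP-gated channel that triggers the inflammasome, stood at 19, 16, 31.1 and 19.7 CPM at 0h and at 6.17, 1.24, 0.835 and 1.92 CPM at 12h (log2 fold change -3.48, SE 0.62, adjusted p = 0.0179). CASP1, the protease that matures interleukin-1 beta, went from 73.6, 59.0, 81.6 and 51.1 to 20.3, 8.74, 11.09 and 6.37 CPM (-2.68, SE 0.42, adjusted p = 0.0161), and its adaptor PYCARD from 11.2, 10.6, 12.3 and 10.8 to 9.16, 0.237, 0.715 and 1.58 CPM (-2.94, SE 0.75, adjusted p = 0.0434). Pig 2 kept the highest 12h level of the 3 genes, and PYCARD fell least in it (log2 fold change -3.77 without that library). IL1B rose while the protease and adaptor of its processing fell, and 4 of 11 inflammasome genes were called in all (1 higher, 9.09% against 3.22% of all tested genes, and 3 lower, 27.3% against 2.76%), with NLRP12 also lower. Of 22 purinergic receptors and ectonucleotidases, P2RY12 (-2.48, SE 0.58) and P2RY13 (-2.28, SE 0.58) fell with P2RX7, and P2RY2 rose (1.99, SE 0.48).

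Genes of DNA repair and of the primary cilium, also gathered after the values had been seen, fell without a rise among the called members. Of 78 tested DNA repair genes, 12 fell (15.4%, against 2.76% of all tested genes) and 0 rose. In 4 of 4 pigs 31 of the 78 were lower, as were 15.1% of all genes. MSH3, a mismatch recognition protein, stood at 14.5, 14.3, 10.7 and 11.8 CPM at 0h and at 3.96, 2.94, 2.56 and 3.89 CPM at 12h (log2 fold change -1.95, SE 0.36, adjusted p = 0.0185), and RPA2, which binds single-stranded DNA, at 50.1, 59.3, 44.4 and 43.3 and then 22.7, 10.3, 19 and 17.1 CPM (-1.57, SE 0.37, adjusted p = 0.0339). PARP1, SMUG1, CHEK2, FANCC, GEN1, PRIMPOL, RAD9B and RAD51C were also among the 12. Leaving out the 12h library of pig 2 gave 25 lower and 4 higher DNA repair genes. The summed level of this list went from 1744, 1873, 1555 and 1668 to 1490, 1645, 2039 and 1620 CPM, up in pig 4 and down in the other pigs. Of 58 primary cilium genes, 7 fell (12.1%) and 0 rose (17 lower without the 12h library of pig 2), among them BBS2 (-1.33, SE 0.35) and TTC8 (-1.37, SE 0.36) of the BBSome and INVS (-1.49, SE 0.37). The summed level of the cilium list was lower at 12h in each pig. Genes described as zinc finger proteins had 24 of 324 lower (7.41%) and 1 higher, and 55 lower and 27 higher without the 12h library of pig 2. Their medians were -0.91, -0.17, -0.07 and -0.18 in pigs 2, 3, 4 and 5. Their summed level went from 5568, 5846, 5482 and 5470 to 4417, 6125, 6813 and 5788 CPM, down in pig 2 and up in the other pigs. AURKB, a mitotic kinase, was the 1 called gene of 50 of the cell cycle (-1.70, SE 0.33).

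Other cell type lists held few calls. HHIP was the 1 called gene of 16 smooth muscle markers (-1.48, SE 0.34) and COL11A1 of 8 cartilage markers (-2.53, SE 0.61), both lower. None of 21 airway ciliated, 14 airway secretory and basal and 18 fibroblast markers and none of 32 genes of cholesterol synthesis and uptake was called by edgeR, with 0, 1, 4 and 6 at an unadjusted p below 0.05. DESeq2 called 1 fibroblast marker and 5 cholesterol genes higher and none of the other 2 lists. Their medians were -0.20, 0.02, -0.54 and -0.22, and those of the ciliated, secretory and cholesterol lists changed sign in at least 1 other fit. No mesothelial marker on the list was expressed highly enough to be tested. SFTPC was not called either, at 26220, 16490, 68910 and 34080 CPM at 0h and 75990, 11050, 16990 and 11240 CPM at 12h, higher in pig 2 and lower in the others (log2 fold change -0.82, adjusted p = 0.452).

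**Figure D5:**
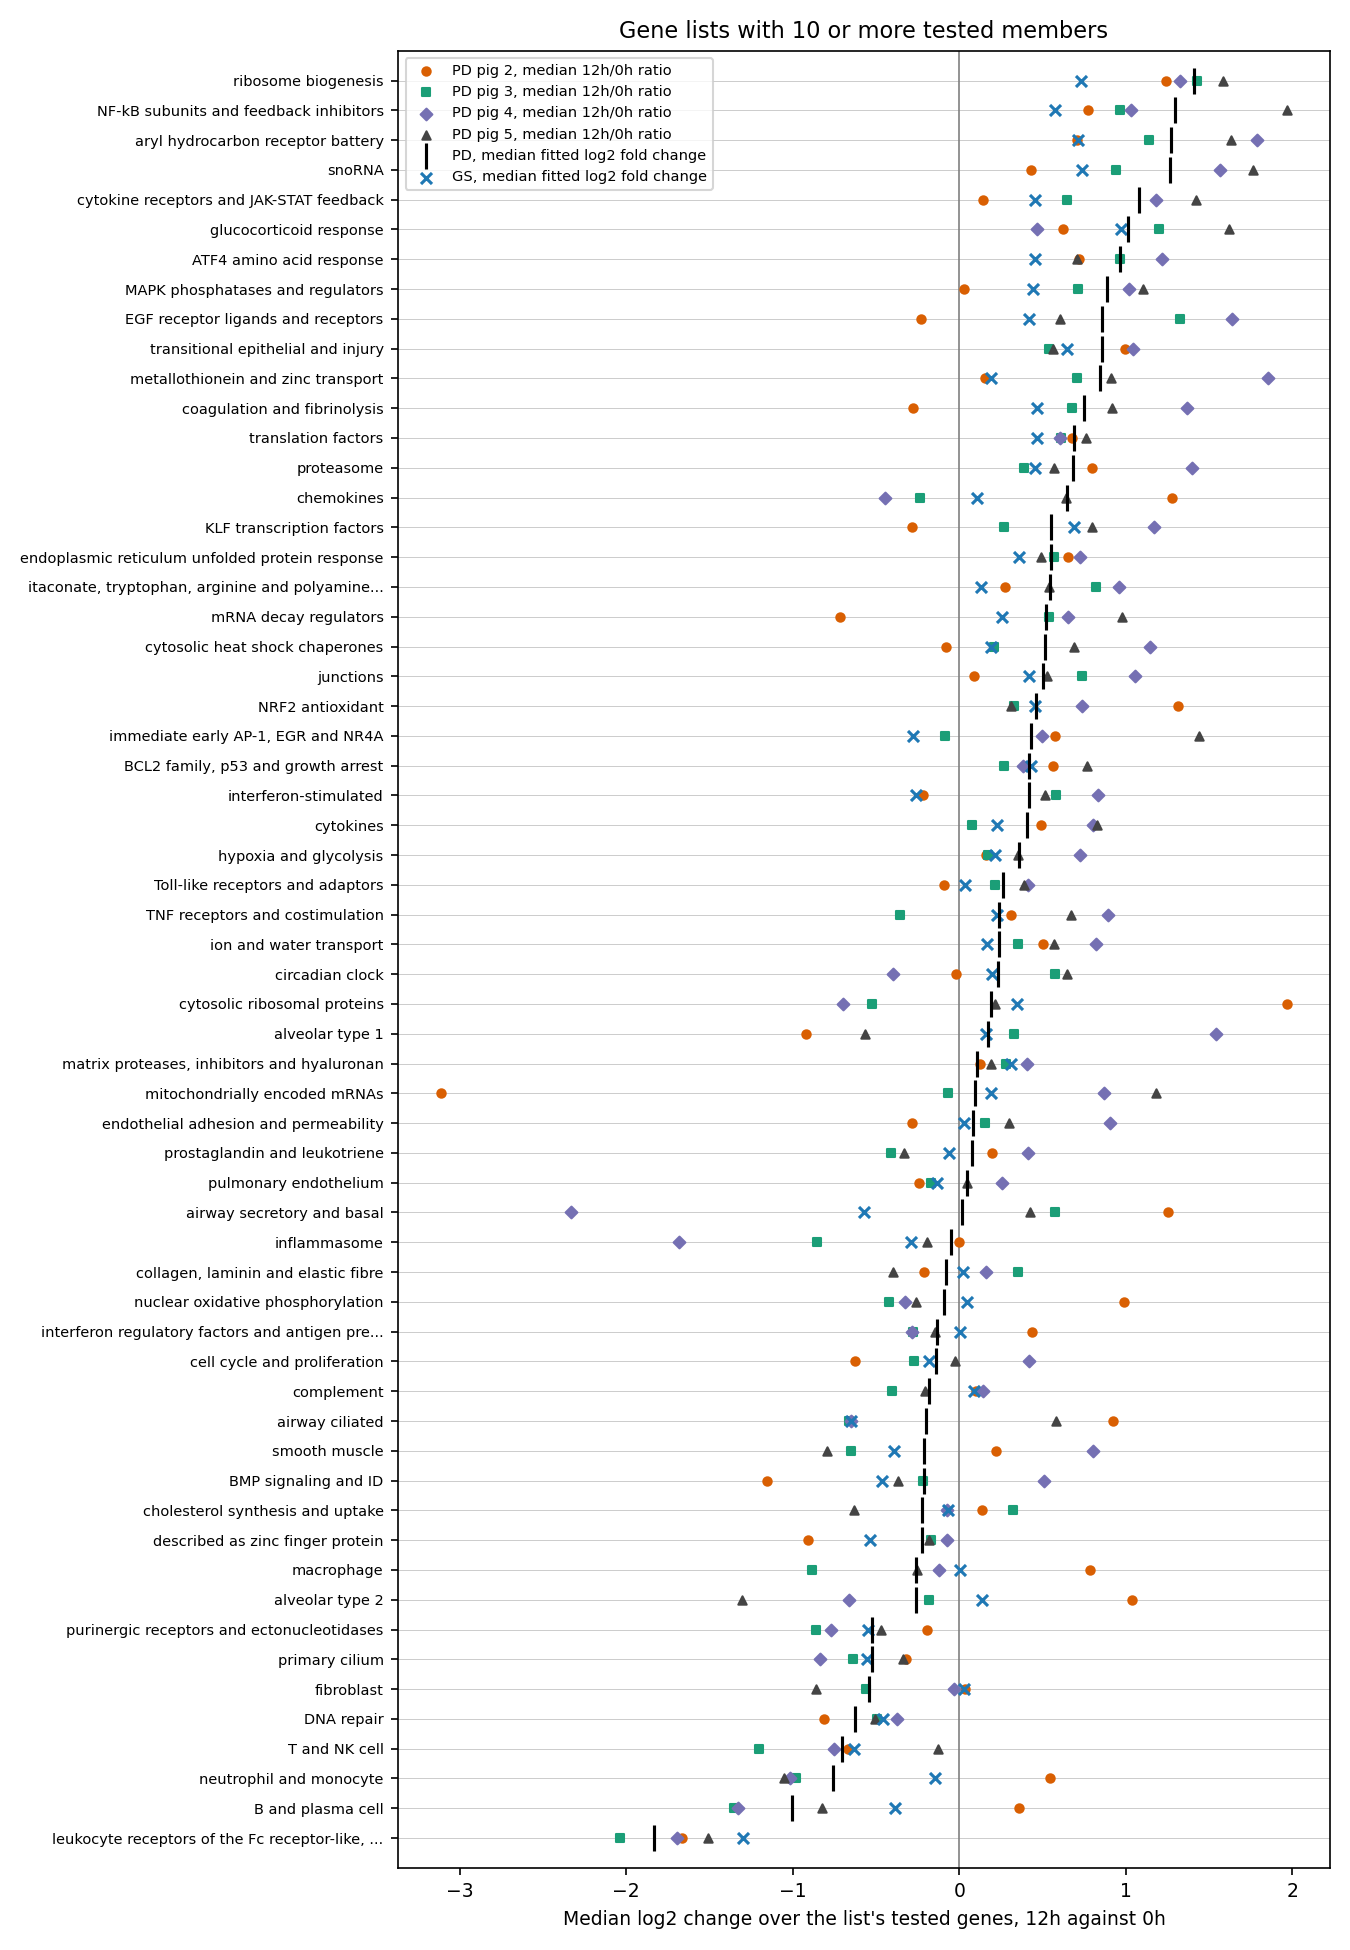
Median log2 change from 0h to 12h over the tested genes of each list with 10 or more of them (rows), with a point for the ratio in each PD pig, a bar for the fitted PD change and a cross for the fitted GS change (horizontal axis, log2 units). Ribosome biogenesis leads at 1.41 with the 4 pigs close together, the leukocyte receptor families stand last at -1.84, and lists such as mitochondrially encoded mRNAs and cytosolic ribosomal proteins have pigs on both sides of 0.

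Whether dialysis changed the course was examined by the difference between the 12h changes of PD and of GS in a joint fit of the 27 libraries. No gene of 17884 passed by edgeR (0%), 1069 genes (5.98%) had an unadjusted p below 0.05, and DESeq2 called 15 (0.0839%), of which 12 were higher in PD. Without PD pig 2, edgeR called 151 of 18568 genes, of which 73 were higher in PD and 78 lower. In that fit 4801 genes had an unadjusted p below 0.05, against 622 to 1173 when any other pig was left out. All PD libraries were shallower than all GS libraries, which held 26335584 to 67522703 counts, and gave more counts to ribosomal protein genes than any GS library (6.46 to 20.9% against 2.71 to 3.68%), so that the library type and the group cannot be told apart. Only the PD lungs had also served the earlier study, so any difference between experiments cannot be told apart from the group either. By itself, the GS comparison of 5 pigs had 1300 higher (6.99%) and 1611 lower (8.66%) genes of 18594.

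Several members that led in PD had a smaller fitted change in GS, none of them with a difference past the threshold by edgeR. ACOD1 changed by log2 4.69 in PD and 0.38 in GS (difference 4.29, SE 1.13, adjusted p = 0.629), CCL4 by 3.37 and 0.47 (2.88, SE 0.79, adjusted p = 0.629), and CXCL10 by 4.08 and 0.64 (3.40, SE 1.11, adjusted p = 0.678). IL1B was at 3.03 in PD and -0.29 in GS (3.28, SE 1.05, adjusted p = 0.677), and CD40 at 1.56 and 0.24 (1.28, SE 0.42, adjusted p = 0.677). These genes were singled out after the values were seen. Others had like fitted values, such as NFKBIA at 1.96 and 2.01, SRXN1 at 3.27 and 3.20, GADD45A at 2.95 and 3.07 and KLF9 at 1.86 and 2.01.

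Ribosome biogenesis had a median change of 1.41 in PD and 0.73 in GS, in which 26 of 87 genes rose. The PD change was above the GS change for 82 of the 87 genes (94.3%, against 50.6% of all genes tested in PD), and 30 of them (34.5%) had an unadjusted p of the difference below 0.05, against 5.75% of all. Among the 15 genes that DESeq2 called were RPP40, PDCD11 and GAR1 of this list, with log2 fold changes of 1.57, 1.40 and 1.38 in PD and 0.16, -0.02 and 0.05 in GS. Other genes of the 15 were PAPPA, a protease of insulin-like growth factor binding proteins (4.12 in PD and 1.17 in GS), PPIF, cyclophilin D of the mitochondrial pore (2.94 and 1.13), BATF2, an interferon-induced factor (1.6 and -0.86), SUCNR1, the succinate receptor (1.32 and -1.66), and SOS2, an activator of RAS, which was lower in PD (-2.10 and 0.24). The leukocyte receptor families had 14 of 23 genes lower in GS, where 8.66% of all genes were, and 13 in PD, where 2.76% were, and the glucocorticoid list had medians of 1.02 in PD and 0.97 in GS. Of the 47 interferon-stimulated genes, 40 (85.1%) had a PD change above the GS change and 11 (23.4%) an unadjusted p of the difference below 0.05, with list medians of 0.42 in PD and -0.26 in GS. A PD change above the GS change was also held by most genes of other lists, among them 20 of 21 airway ciliated markers (95.2%), 30 of 33 of the NF-kB list (90.9%), 28 of 33 heat shock chaperones (84.8%) and 38 of 45 of the ATF4 list (84.4%), with 0, 6.06, 3.03 and 6.67% at an unadjusted p below 0.05.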

How the data were processed

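Lung biopsies of 4 PD pigs and 5 GS pigs were sequenced at 0h, 6h and 12h (27 libraries), from stranded poly(A) libraries. The deposited values are raw read counts per Ensembl gene (31908 genes). According to the study's methods and the submitters' processing notes, the authors trimmed reads with cutadapt 1.15, aligned them with TopHat2 2.0.14 to Sscrofa11.1 and counted them with featureCounts of Subread 1.6.0. The strand setting and the handling of reads with several matches are not given in the sources used here, so reads of overlapping genes or of near-identical copies may be divided between them.

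Counts of the 12 PD libraries were fitted with edgeR 4.0.16 (TMM scaling, default filter on low counts, robust quasi-likelihood, time plus pig), and 12h was tested against 0h. The 6h libraries entered the fit to share the estimate of the spread, and no library was dropped or imputed. Genes passed with a change of at least 2-fold and a p below 0.05 after Benjamini-Hochberg adjustment over all tested genes. SE is the standard error of the log2 fold change. The pig was the block because the 0h and 12h biopsies come from the same animal. After time means were removed, libraries of the same pig had a mean correlation of 0.128 (-0.319 to 0.564) and libraries of different pigs at different times one of -0.0377. The biopsies of a time come from separate animals, and no pair of libraries agreed within sampling noise (chi-square per degree of freedom of 36.4 or more). The PD and GS changes were compared in a fit of all 27 libraries by the difference of the 12h changes. A level of 3 counts corresponds to 0.115 to 0.289 CPM in the PD libraries, and intervals quoted for counts cover counting error only.

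Symbols came from the deposited table and RefSeq names, 18074 genes in all. Gene lists for signalling, stress, metabolism and cell types were compared by counts of called genes and medians. The lists and the comparison were chosen with earlier results of these data known, and those of the aryl hydrocarbon receptor, inflammasome, purinergic receptors, leukocyte receptor families, DNA repair, primary cilium, zinc finger proteins, snoRNAs and lncRNAs after the values had been seen. Named genes were the 10 largest rises and 10 largest falls that moved the same way in 4 pigs with at least 10 counts in every library of the higher time, up to 8 called members of a list, uncalled members whose role called for a value, and a set of cytokine, NF-kB and vascular genes. Others are named after their values were seen, and some genes are not reported here.

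Alternatives were no block, the 8 libraries alone, all 27 libraries, DESeq2 1.42.0, limma 3.58.1 voom with quality weights, RLE scaling, no filter and a stricter filter (10 counts in 4 libraries), and each pig left out. After seeing the data, fits without the 12h library of pig 2, without it and the 0h library of pig 4, with the trend over transcript length and GC content removed, and voom with each pig left out were added. R 4.3.3, Python 3.11, pandas 2.3.3 and matplotlib 3.10.9 were used, and the fits were tested on simulated data. Promoters were read from the RefSeq genome of the same build.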

Additional observations from a re-analysis of the deposited data

Results flagged for a closer look

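In 10 of the values examined, 1 of the 4 pigs or libraries lay far from the other 3, by the gap to its nearest neighbour as a share of the whole range, above Dixon's critical value for 4 values. In independent groups of 4, chance alone gives such a value in about 1 of 20. The 185 named genes and 65 lists examined share the same 4 pigs, and most named genes were chosen by their values. That rate therefore does not apply to them, and whether the number exceeds chance was not tested.

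Among genes, the gap in the log2 ratio of 12h to 0h was 0.948 of the range for TNF, 0.944 for SOCS3, 0.869 for GPR137C, 0.856 for RPA2, 0.845 for IL1R1 and 0.84 for PTGIR. TNF, which went from 2.63 to 44.3 CPM in pig 5, rose there by more than in the other pigs, and so did SOCS3 (14.9 to 234 CPM). GPR137C fell least in pig 5 and RPA2 fell most in pig 3 (59.3 to 10.3 CPM). IL1R1 rose least in pig 2 (45.2 to 68.0 CPM) and PTGIR least in pig 5 (6.85 to 24.6 CPM).

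Among lists, the median ratio of a pig stood apart for neutrophil and monocyte markers (0.957), nuclear oxidative phosphorylation (0.883) and genes described as zinc finger proteins (0.873), in each case because of pig 2. The share of counts on transcripts under 1000 bases stood apart in the 0h libraries (0.858), where pig 4 had 35.4% against 21.3 to 23.3% in the others.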

How the results depend on the processing

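The number of called genes moved with most settings, while the directions of the called genes that were still tested did not. The fit with the pig as a replicate block called 930 genes. Without the replicate block it was 1460 (818 higher), with only the 8 libraries of 0h and 12h it was 4 (4 higher, 0 lower, 2772 at an unadjusted p below 0.05), and with all 27 libraries 3300 (1568 higher, 1732 lower). DESeq2 gave 2560 (1363 and 1197) and limma voom with quality weights 4717 (2204 and 2513). RLE scaling gave 953, no filter 901 and the stricter filter 931. Leaving out 1 pig gave 0 to 3826 genes by edgeR (0 to 1846 higher, 0 to 1980 lower) and, by voom without pigs 2, 3, 4 and 5, 4866, 4969, 4630 and 2488 (2306, 2368, 2188 and 1104 higher, 2560, 2601, 2442 and 1384 lower). Without the 12h library of pig 2 it was 4161 (1885 and 2276), without that library and the 0h library of pig 4 it was 3296 (1643 and 1653), and with the trend over transcript length and GC content removed 2314 (1055 and 1259) of 12993 genes with a length. The cause of these moves was not tested. No called gene turned its direction in a setting that tested it, and most settings share most of their libraries. With the length and GC trend removed, 430 of the 501 higher and 348 of the 429 lower genes were tested. With the 8 libraries alone, 481 and 417 were.

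For the difference between the PD and GS changes, edgeR called 0 genes, with the pig as a block and without it, and DESeq2 called 15. Leaving out 1 pig gave 0 to 151, the latter without PD pig 2. The median log2 fold change over all genes was -0.05 with TMM and -0.003 with RLE scaling. The PD depth of 14650700 to 21820935 counts limits what can be said of genes near 3 counts.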
